A study of Mus musculus with 11 samples.

Results

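The T-box genes encode transcription factors that bind DNA through a shared T-box domain. The 10 members described here, *Tbx1*, *Tbx2*, *Tbx3*, *Tbx4*, *Tbx5*, *Tbx6*, *Tbx15*, *Tbx18*, *Tbx20* and *Tbxt* (listed as *T* in the annotation), were taken as a list of family members best known from tissues other than the cortical lineage, out of 21755 protein-coding genes on chromosomes 1 to 19 and X. The members are set by name and not by a threshold on measured values, but the list was proposed with earlier results of these data known. For each gene the H3K27me3 peaks over the gene body and 10 kb either side, its window, were collected in the MGE, CGE, LGE and CTX. In 9 of the 10 genes the window held H3K27me3 in every region, against 36.1% of all protein-coding genes, and *Tbx6* held none in any region.

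T-box factors pattern organs outside the brain: heart, limb, pharyngeal arches, somites and notochord. In the forebrain, the family is represented mainly by *Eomes* and *Tbr1*, which act in the cortical lineage and are not among the 10 members. H3K27me3 is laid down by Polycomb repressive complex 2, often over CpG-rich promoters of developmental regulators, and is held to keep such genes silent in lineages that do not use them.

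The tissue came from wild-type C57BL/6J mouse embryos, and all groups share this strain and genotype. The GEs (MGE, CGE and LGE, the medial, caudal and lateral ganglionic eminences) are the ventral germinal zones of the embryonic forebrain, and CTX is the dorsal cortex, labelled as somatosensory in the extraction text. CUT&Tag, in which an antibody guides a transposase to marked nucleosomes, was run on 11 samples, 2 of MGE and 3 each of CGE, LGE and CTX, and samples of the same region were merged by the authors ahead of broad peak calling. The 3 samples in each of CGE, LGE and CTX carry only 2 distinct replicate numbers, so they may not be 3 biological replicates. After merging, each region is 1 list with no replicate error, no difference between lists could be tested, and the values are given as descriptions. The study describes its CUT&Tag tissue as E12.5. The extraction text of the labels names E12.5 and E14.5 with no age for any sample, and it also mentions an equal pooling of nuclei across regions, while each sample carries the label of 1 region. Dissected regions are mixtures of cells, so a peak present in fewer cells and a weaker peak in all cells cannot be told apart.

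The lists held 15384 (MGE), 19196 (CGE), 16851 (LGE) and 18785 (CTX) peaks that covered between 24.5 and 32.9 Mb. Of 10 marker genes of the regions, all held peaks in all lists (all genes 36.1%), and 7 were least covered in the region or regions they mark. The 3 others were *Lhx6* (29.9% of the window in MGE, which it marks, and 26.8% in LGE), *Sp8* (29.6% in LGE, which it marks, and 17.1% in CTX) and *Neurod2* (60.04% in CTX, which it marks, and 47.9% in LGE). Among the 7, the margin was small in *Gad1* (13.0 to 13.2% in the GEs and 13.4% in CTX) and *Dlx2* (41.9 to 48.6% in the GEs and 49.1% in CTX). It was also small in *Neurod6*, a gene of the cortex (4.33% in CTX and 4.68 to 4.96% in the GEs). *Emx1*, a dorsal progenitor gene, had 14.7% of its window under peaks in CTX and 25.3 to 28.5% in the GEs, and *Neurog2*, a proneural gene of the dorsal forebrain, had 22.9% in CTX and 41.1 to 43.9% in the GEs. *Nkx2-1*, which defines the MGE, had its whole promoter under peaks in MGE as in the other lists. Its window was covered to 42.7% in MGE and 50.3 to 54.3% elsewhere, so the MGE list carried the mark over its own defining gene. The highest −log10 q of a peak in the *Nkx2-1* window was 5.97 in MGE and 43.1 to 52.0 elsewhere. That peak was picked in each list on its own and need not be the same one. The fold enrichment of the picked peak was 2.42 in MGE and 1.95 to 2.17 elsewhere. MGE had the fewest H3K27me3 reads in the study's methods, and a link with these values was not tested. Of 7 markers of vessel, pericyte, meningeal and microglial cells, 4 held a peak in every list (all genes 36.1%), and their part in the results was not tested.

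RefSeq promoter entries (GRCm38.p6) matched 6 of the 10 members. They were *Tbx1*, *Tbx4*, *Tbx6*, *Tbx18*, *Tbx20* and *Tbxt*, while *Tbx2*, *Tbx3*, *Tbx5* and *Tbx15* were not matched. The 250 bases upstream of the start of 4 genes are shown because they span the 3 patterns found at the starts of the matched genes: covered in all lists (*Tbx20* and *Tbxt*), covered in MGE and CGE alone (*Tbx18*) and covered in none (*Tbx6*). A further pattern, a start covered in MGE alone, was found in *Tbx5* and, by a peak that ended only 55 bases past it, in *Tbx2*. Each is written 5′ to 3′ on the gene's strand with CG dinucleotides in capitals. *Tbx20* lies on the minus strand at chr9:24774304-24774553, *Tbxt* on the plus strand at chr17:8434173-8434422, *Tbx18* on the minus strand at chr9:87731261-87731510 and *Tbx6* on the plus strand at chr7:126781233-126781482.
Tbx20: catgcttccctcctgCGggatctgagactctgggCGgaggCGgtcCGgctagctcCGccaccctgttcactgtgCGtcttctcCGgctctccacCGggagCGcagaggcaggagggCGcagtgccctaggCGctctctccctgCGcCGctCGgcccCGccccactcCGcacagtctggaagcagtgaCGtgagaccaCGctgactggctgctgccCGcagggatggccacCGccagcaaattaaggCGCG
Tbxt: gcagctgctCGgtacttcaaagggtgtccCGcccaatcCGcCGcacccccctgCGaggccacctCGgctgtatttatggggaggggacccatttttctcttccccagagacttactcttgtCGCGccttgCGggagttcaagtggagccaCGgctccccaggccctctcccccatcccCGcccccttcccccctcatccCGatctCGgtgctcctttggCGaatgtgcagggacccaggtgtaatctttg
Tbx18: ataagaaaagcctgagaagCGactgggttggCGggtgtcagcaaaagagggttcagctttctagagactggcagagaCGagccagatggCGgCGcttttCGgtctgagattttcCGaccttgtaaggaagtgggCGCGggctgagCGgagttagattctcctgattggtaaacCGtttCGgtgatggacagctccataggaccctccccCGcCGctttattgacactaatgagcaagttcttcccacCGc
Tbx6: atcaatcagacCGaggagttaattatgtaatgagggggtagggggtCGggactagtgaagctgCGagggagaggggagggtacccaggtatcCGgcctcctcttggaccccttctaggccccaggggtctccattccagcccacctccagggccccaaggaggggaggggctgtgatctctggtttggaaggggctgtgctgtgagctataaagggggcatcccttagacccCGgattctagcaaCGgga
The stretches of *Tbx20*, *Tbxt*, *Tbx18* and *Tbx6* held 22, 14, 15 and 6 CG dinucleotides. The *Tbx6* stretch was the poorest in CG of these 4 and the *Tbx20* stretch the richest. Over the whole RefSeq entries of 300 bases, which run 50 bases past the start, *Tbx6* had 7 CG dinucleotides, equal to the median of 32851 promoters, and *Tbx20* had 26.

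At least 1 peak lay in the windows of 9 members in each list, beside a background over all protein-coding genes of 43.3% of windows in MGE, 46% in CGE and 44.7% in LGE, and 47.2% in CTX. The same 9 members had a peak in all 4 lists, against 36.1% of all windows. The members differed from most genes more in how much of the window was covered than in having a peak. The median member had 19.9% of its window under peaks in MGE, 20.9% in CGE and 18.4% in LGE, and 19.995% in CTX, whereas the median of all genes was 0 in each list and their mean lay between 2.67% and 3.36%. Each of the 9 covered members ranked at or above the 88.6th percentile of all genes in every list, and *Tbx3* reached the 99.8th or higher. The cover was spread over the window unevenly, as the map of peaks by distance from the start shows.

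**Figure D1:**
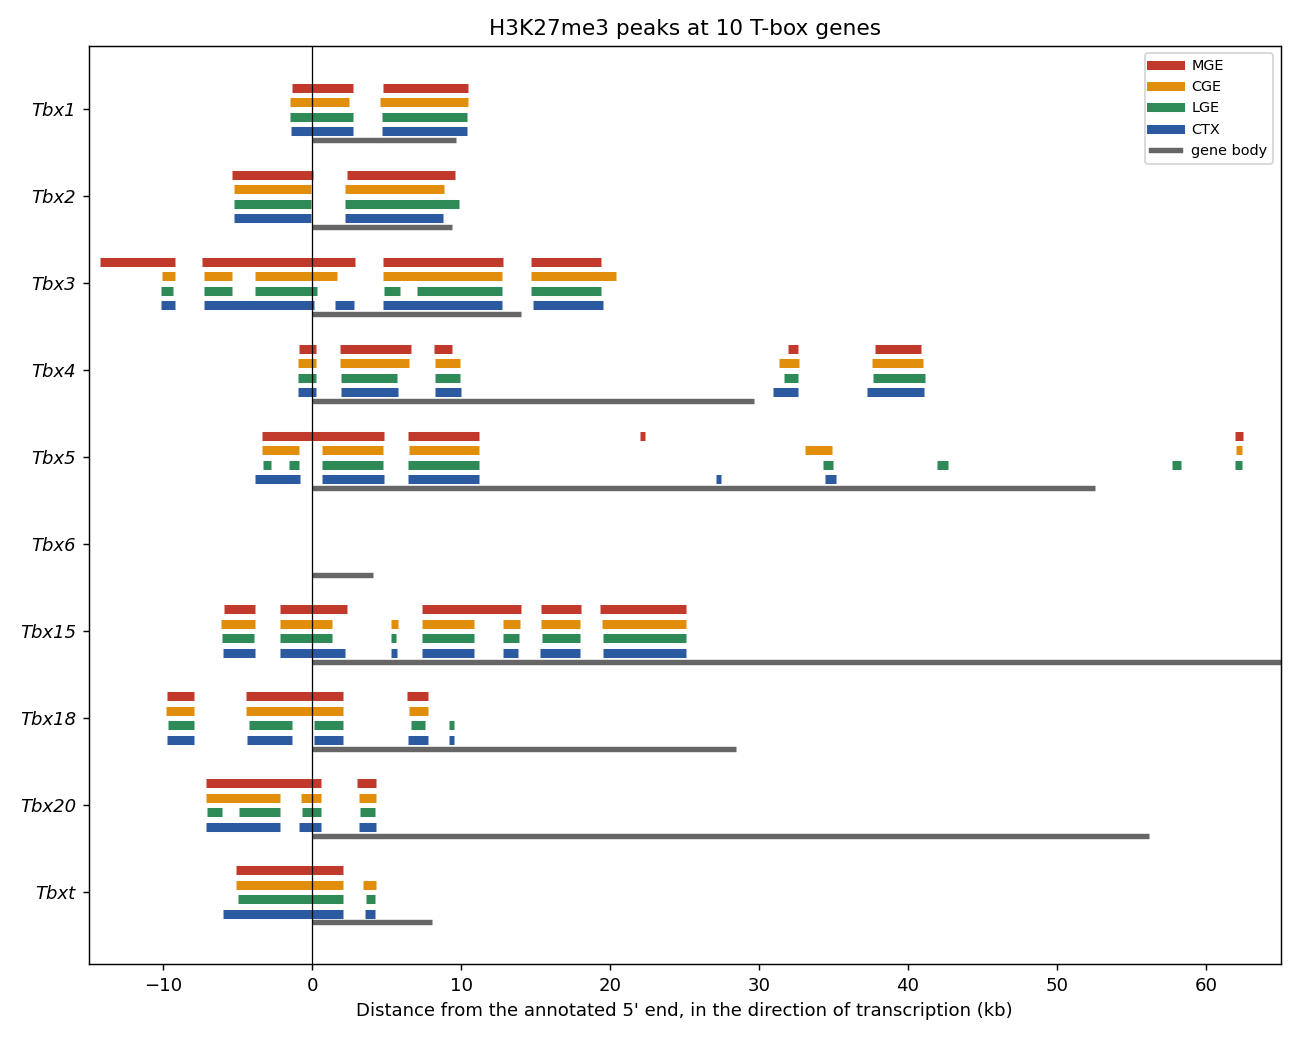
H3K27me3 peaks in the windows of the 10 T-box genes, drawn by distance in kb from the annotated 5′ end in the direction of transcription, with 1 row per region and the gene body in grey (the body of *Tbx15* runs past the right edge). Peaks of the 4 lists stack over most genes and *Tbx6* has none. The start of *Tbx5* and *Tbx18* lies in an uncovered space in some lists, and a space at or just past the *Tbx2* start is uncovered in all 4.

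*Tbx3* and *Tbx5*, neighbours on chromosome 5, act in limb and heart, *Tbx3* also in the cardiac conduction system and *Tbx5* in the forelimb bud. *Tbx3* (chr5:119670669-119684724, with all gene positions on GRCm38) was the most covered member, with 70.1% of its window under peaks in MGE, 64.3% in CGE and 53.4% in LGE, and 65.1% in CTX. It also had the widest spread between lists, 16.7 percentage points, and its promoter, the 2 kb upstream of the 5′ end, was wholly covered in all 4. The widest peak over its start was 10245 bases long in MGE and ran from position -7377 to 2867 relative to the start, while in LGE the peak over the start ran from -3840 to 320. In *Tbx5* (chr5:119832668-119885219) 18.997%, 18.6%, 17.4% and 17.9% of the window was covered in MGE, CGE, LGE and CTX. A single MGE peak from -3360 to 4806 spanned the *Tbx5* start, whereas the start was uncovered from -885 to 670 in CGE, from -885 to 677 in LGE and from -779 to 677 in CTX.

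*Tbx2* and *Tbx4*, a second pair of neighbours on chromosome 11, act in heart and limb, *Tbx4* in the hindlimb bud. *Tbx2* (chr11:85832551-85841948) had 42.9%, 40.3%, 43.8% and 40.1% of its window covered in MGE, CGE, LGE and CTX. Its upstream peak ended 55 bases past the start in MGE, and from -57 to 2233 in CGE, -52 to 2198 in LGE and -52 to 2203 in CTX no peak was called. The *Tbx2* promoter was covered by 97.2 to 100%, and that of *Gm11444*, the other protein-coding gene that starts in the window, held no covered base. In *Tbx4* (chr11:85886422-85916097) 19.7%, 22.0%, 19.4% and 22.0% of the window was covered, with 5 peaks in each list. The *Tbx4* promoter was covered to 43.5% in MGE and 48.4% in the other lists, just below the 50% at which a promoter was called marked.

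*Tbx1*, *Tbx18* and *Tbx20* have roles in pharyngeal arches, epicardium and ureter, and heart muscle, respectively. *Tbx1* (chr16:18580979-18590671) was the most even of the 9 covered members: 33.3% of its window was covered in each list, with a spread of 0.0168 percentage points. It held 2 peaks in every list, 1 over the start and 1 over the 3′ part of the gene. *Tbx20* (chr9:24718138-24774303) had the least cover of the 9, 11.8% in MGE, 9.79% in CGE and 7.98% in LGE, and 9.89% in CTX, all of it in the upstream flank and the first part of the gene. In MGE 1 *Tbx20* peak ran from -7086 to 617, and in the other lists separate peaks lay over the same stretch. The downstream edge of the peak over the *Tbx20* start, 617 bases past the start, fell on the same base in all 4 lists. *Tbx18* (chr9:87702800-87731260) had 20.2%, 19.8%, 16.2% and 17.5% of its window covered, and 1 peak spanned its start in MGE and in CGE. The *Tbx18* start was uncovered from -1348 to 147 in LGE and from -1338 to 147 in CTX, the stretch that holds the sequence printed above. The peak 8 to 10 kb upstream of *Tbx18* had the highest fold enrichment of the member's window in each list, 3.64 in MGE, 3.67 in CGE and 4.23 in LGE, and 3.64 in CTX.

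*Tbxt* (Brachyury) and *Tbx6* act in the primitive streak, *Tbxt* also in the notochord and *Tbx6* in presomitic mesoderm, and *Tbx15* acts in limb and craniofacial skeleton. *Tbxt* (chr17:8434423-8442496) had 25.4%, 28.7%, 27.03% and 31.0% of its window covered in MGE, CGE, LGE and CTX. Its promoter was wholly covered in all 4 lists by a peak of 7043 to 8032 bases over the start. *Tbx15* (chr3:99240381-99354259) had 16.2%, 14.3%, 13.9% and 14.7% of its long window covered and its promoter wholly covered. *Tbx6* (chr7:126781483-126785560) had no peak within 10 kb of its gene body in any list. The nearest peak to the *Tbx6* start was 66.6 kb away in MGE, 66.0 kb in CGE, 41.8 kb in LGE and 41.4 kb in CTX. The promoters of *Ypel3* and *Ppp4c*, the other protein-coding genes that start in the *Tbx6* window, held no covered base either.

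**Figure D2:**
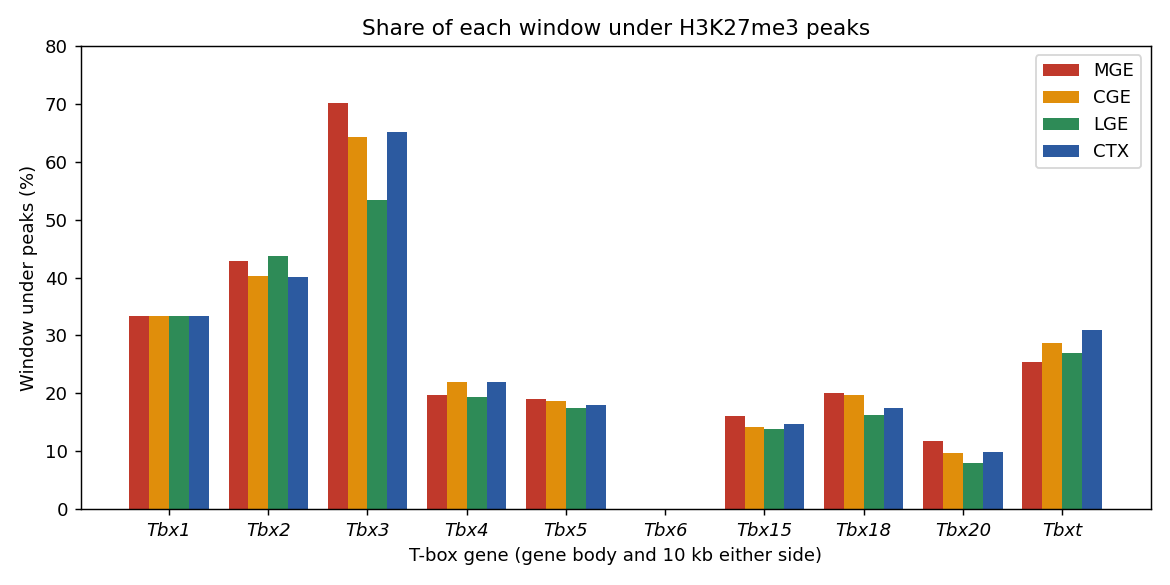
Share of each gene's window (gene body and 10 kb either side) under H3K27me3 peaks in percent, 1 bar per list with no replicate error. The 4 bars of most genes lie close together, *Tbx3* is the tallest with 53.4 to 70.1%, and *Tbx6* is at 0. LGE is the lowest bar in 7 genes (25.7% of genes covered in all lists). This holds in 2 when peaks less than 3 kb apart are joined, with no share over all genes at hand.

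CTX lay above the range of the 3 eminences by 5 percentage points or more in 0 members, against a background of 0.722% of all genes, and below it by that margin in 0, against 0.464%. With so few such genes in the genome, a count of 0 among 10 is near the background and is no result about the members. In *Tbxt*, where CTX was highest, it exceeded the highest eminence by 2.29 points. Over all 4 lists, 2 members (*Tbx3* and *Tbxt*) spanned 5 points or more, against 9.3% of all genes.

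Cover was lowest in LGE in 7 of the 9 covered members, against 25.7% of the 7858 genes covered in all lists, and highest in MGE in 5, against 12%. This order depended on the spaces between peaks: with peaks less than 3 kb apart joined, LGE was lowest in 2 members and MGE highest in 0, while CTX was highest in 5. *Tbx18* then had 20.2% of its window covered in MGE and 22.6% in LGE. The LGE list divided the members' cover into 41 peaks with a median width of 1855 bases, and the MGE list into 28 with a median of 4749 bases. Per the study's methods, MGE had fewer H3K27me3 reads in total than the other regions. With the same number of strongest peaks taken from each list, LGE was lowest in 7 members and MGE highest in 5, as in the full lists. That step drops weak peaks and does not change how strong ones are split, and a link with the read totals was not tested. With the gene body alone, LGE was lowest in 5 members and MGE highest in 3. The shares over all genes above are for the full lists. None is at hand for joined peaks, equal peak numbers or the gene body alone. The 7 members of the full lists include *Tbx1*, whose spread was 0.0168 percentage points.

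The promoter was marked, with 50% or more of its bases under peaks, in 8 members in MGE (all genes 6.47%), 7 in CGE (8.33%) and 5 in LGE (6.52%), and 6 in CTX (7.14%). In all 4 lists it was marked in 5 members, *Tbx1*, *Tbx2*, *Tbx3*, *Tbx15* and *Tbxt*, beside 4.72% of all genes. The call differed between lists in *Tbx5*, *Tbx18* and *Tbx20*. The *Tbx5* promoter was covered to 100% in MGE, 55.8% in CGE and 34.0% in LGE, and 61.0% in CTX. The *Tbx18* promoter was wholly covered in MGE and CGE, while 32.6% of it was covered in LGE and 33.1% in CTX. The *Tbx20* promoter was wholly covered in MGE, and the other lists covered 38.1% (CGE), 34.4% (LGE) and 42.4% (CTX). Where these 3 promoters were covered in part, peaks lay on either side of the uncovered stretch. Joining peaks less than 3 kb apart raised the count in all 4 lists from 5 to 8, with no share over all genes at hand for joined peaks. The first base of the gene lay under a peak in 9 members in MGE (all genes 19.2%), 7 in CGE (20.9%) and 6 in LGE (20.8%), and 6 in CTX (22.8%). It did so in all 4 lists in 6 members, beside 14.5% of all genes.

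Around the start, cover of the members rose to 90% in MGE, 80% in CGE and 70% in LGE, and 71.4% in CTX in the highest bin of 250 bases, as a mean over the 10 genes. For all genes the highest bin was 19.8% in MGE and 23.4% in CTX. Downstream of the start, in a stretch that runs past the end of the shorter genes such as *Tbx6* and *Tbxt*, the members' mean cover was 47.8 to 50.1% between 5 and 10 kb, against 13.2 to 18.2% between 10 and 5 kb before the start. By annotation, 33.6 to 41.8% of the upstream flanks, 28.0 to 34.6% of exon bases, 16.8 to 18.1% of intron bases and 8.90 to 10.4% of the downstream flanks were under peaks.

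**Figure D3:**
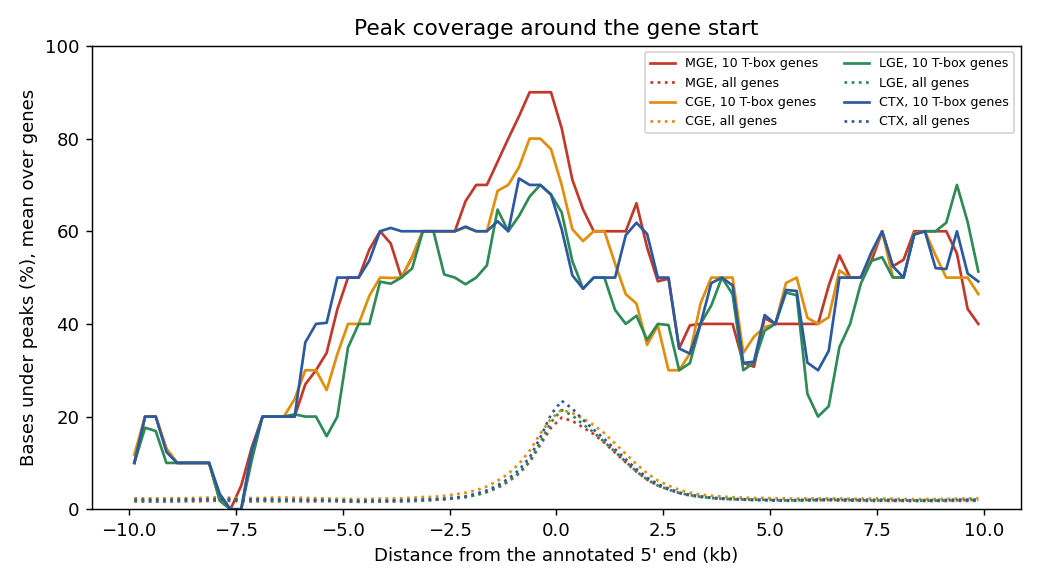
Bases under peaks in percent, as a mean over genes in bins of 250 bases, by distance in kb from the annotated 5′ end, for the 10 T-box genes (solid) and all protein-coding genes (dotted). The members lie above all genes over nearly the whole range, with the highest cover just upstream of the start, 90% in MGE and 70% in LGE.

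The members' peaks were low and mostly broad. The median width of these peaks stood at the 97.5th percentile of the list in MGE, the 85.7th in CGE, the 67.1st in LGE and the 84.4th in CTX. Their median fold enrichment, between 1.71 and 1.86 in the 4 lists, stood at the 3.21st to 4.62nd percentile of all peaks of the list, and their median −log10 q at the 81.7th to 85.0th. Peaks of 5 kb or more had a lower fold enrichment than the whole list in general (medians 1.82 to 1.94, against 2.71 to 2.99). Of the member peaks, 12 of 28 in MGE, 9 of 34 in CGE, 6 of 41 in LGE and 7 of 36 in CTX were that wide. Over the whole lists, 315 of 15384, 399 of 19196, 276 of 16851 and 391 of 18785 peaks were, in the same order. The member peaks also lay close to each other: the lists held 1.75 to 2.25 member peaks per stretch joined at 3 kb, against 1.10 to 1.12 over all peaks. The uncovered stretches inside these joined runs measured 1121 to 2594 bases, and 8 of the 71 held a start site.

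Much of the members' cover lay on the same bases in the 4 lists. Of 129 kb covered in any list in the 10 windows, 96.3 kb (74.8%) was covered in all 4, against 33.0% for all peaks. By member this share ran from 93.6% in *Tbx1* to 55.4% in *Tbx5*. Cover found in only 1 list was greatest in *Tbx5*, 30.4% of its covered bases, with 10.3% in MGE alone, 6.67% in CGE alone, 7.74% in LGE alone and 5.67% in CTX alone. The *Tbx5* cover in LGE alone came from weak peaks of 790 and 612 bases, with −log10 q of 1.81 and 1.24. Part of that in MGE alone and in CTX alone came from peaks of 330 and 340 bases, with −log10 q of 1.52 and 1.50. In *Tbx20* the cover found in only 1 list was 16.1%, all of it in MGE. In the other covered members it ran from 1.70% (*Tbx1*) to 12.5% (*Tbxt*). The Jaccard index (shared covered bases divided by all bases covered in either list) was 80.3% for MGE and LGE and 87.1% for CGE and CTX within the windows, the lowest and highest of the 6 pairs. Over the whole lists it lay between 46.5 and 60.1%. Of the peak edges in the members' windows, 24.4 to 41.1% had an edge within 100 bases in each of the other lists, compared with 9.62 to 12.0% of all edges. The member peaks had a median −log10 q of 17.7 to 26.6, against 3.38 to 4.61 for all peaks. Sharing among peaks of like strength was not computed.

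CpG islands were taken as runs of 200-base windows with over 50% GC and an observed-to-expected CpG ratio over 0.6. Islands made up 11.5% of the members' window bases, against 2.49% of the chromosomes. Gene windows hold starts, and 57.9% of all starts lay in islands, so the chromosomes are not a like background. The island share over the windows of all genes was not computed. Of the island bases in the members' windows, the share under peaks was 72.3% for MGE, 71.6% for CGE and 67.9% for LGE, and 68.3% for CTX, and it was 13.4 to 15.8% for the other bases. Over the chromosomes, 12.7 to 14.1% of island bases and 0.631 to 0.922% of the others were under peaks. In each of the 9 covered members the islands were more covered than the rest of the window in all 4 lists. *Tbxt* islands were covered to 92.9 to 100%, and *Tbx5* islands to 49.6 to 56.6%.

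**Figure D4:**
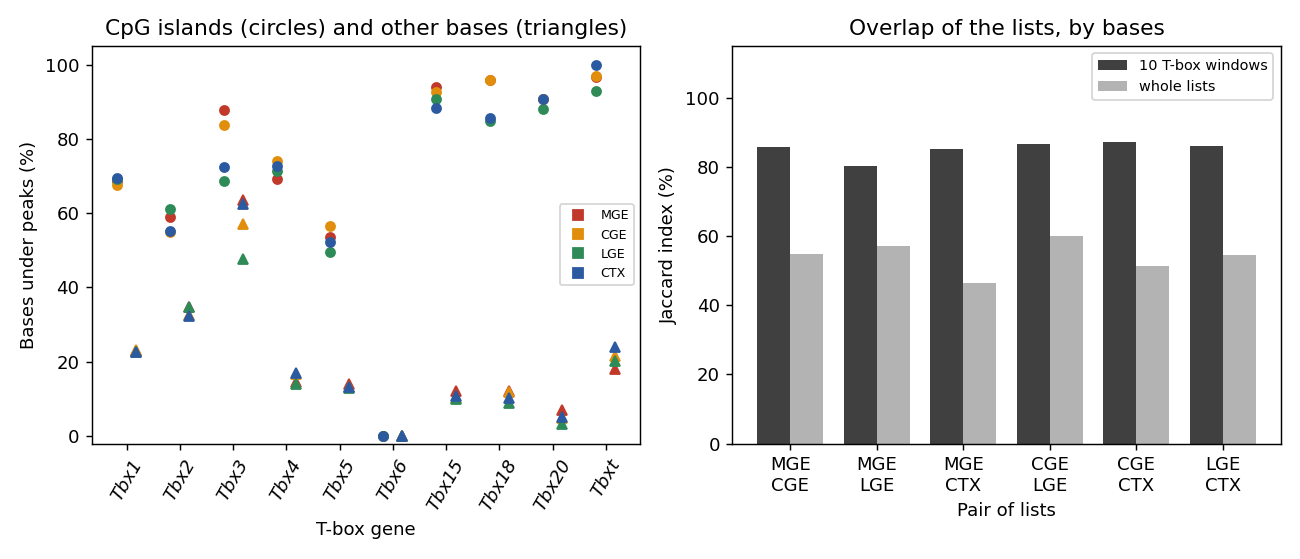
Left, bases under peaks in percent in the CpG islands (circles) and the other bases (triangles) of each T-box window, coloured by list. Right, Jaccard index in percent for each pair of lists, in the 10 T-box windows (dark bars) and over the whole lists (light bars), where the windows reach 80.3 to 87.1% and the whole lists 46.5 to 60.1%.

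The annotated start lay in an island in 9 members, all but *Tbx6*, and in 57.9% of all genes. The *Tbx6* window still held 5 islands over 2.72 kb, none of them with a covered base. Among all genes, the promoter was marked in 9.76 to 12.4% where the start lay in an island and in 1.95 to 2.70% elsewhere. The RefSeq start of *Tbx4* lay 10343 bases inside the annotated gene, and no peak covered its promoter entry, which held 8 CG dinucleotides. The T-box element GGTGTGA, searched on both strands, was in none of the 7 entries of the members and in 3.98% of all promoter entries, a description of these letters in these windows.

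Among the other 7 T-box genes, *Eomes*, which acts in intermediate progenitors of the cortex, had 41.3% of its window covered in CTX and 41.9 to 46.5% in the GEs, with its promoter wholly covered in all 4. *Tbr1*, a gene of early cortical neurons, had 28.9%, 27.5%, 17.3% and 22.8% of its window covered in MGE, CGE, LGE and CTX but only 4.15 to 8.15% of its promoter. *Tbx21*, the T-bet gene of lymphocytes, was marked in all lists with 12.5 to 15.04% of its window covered. *Tbx10*, *Tbx19*, *Tbx22* and *Mga* had at most 9.12% covered. The median of the 7 genes, taken over each gene's mean of the 4 lists, was 7.80%, against 19.6% in the 10 members.

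A list of 20 genes that act with T-box factors was read in the same way. Of these, 18 held a peak in all 4 lists (all genes 36.1%) and 6 had a marked promoter in all 4 (all genes 4.72%). The 8 heart genes had a median of 31.0% of their window covered as a mean over lists, from *Mef2c* at 1.81% to *Hand2*, a partner in heart and limb, at 58.4%. The 5 limb and pharynx genes had a median of 33.7%, from *Fgf10* at 3.54% to *Pitx1*, a hindlimb factor, at 46.9%. The 7 mesoderm and somite genes were less covered, with a median of 7.30%, from *Ripply1* at 0 to *Mesp1* at 12.1%. *Tbx6*, at 0 in all lists, works with this last group, but *Tbxt*, which also acts in the primitive streak, had 25.4 to 31.0% of its window covered. A link between the cover of members and of partners was not tested. The promoter call differed between lists in *Ripply2*, marked in CGE alone at 53.2%, and *Ripply3*, marked in all but LGE, where 44.1% was covered.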

How the data were processed

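H3K27me3 CUT&Tag peaks were taken from 4 deposited broad peak lists, 1 per region. Per the study's methods, the authors aligned reads to GRCm38/mm10 with Bowtie2, removed blacklisted reads and Picard duplicates, merged replicates with samtools and called broad peaks with MACS. Versions and the control are not given in the sources used here. The deposited values are a fold enrichment (a ratio), the −log10 of a p-value and of a q-value, and a score, all written by MACS; the p-value and the score were not used. No read counts are in the lists, so no counting interval is given, and a region with more reads can yield more and weaker peaks.

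Coverage was computed in Python 3.11.15 with numpy 2.4.6 over chromosomes 1 to 19 and X, with GENCODE M21 genes. The window was the gene body and 10 kb either side, and the promoter the 2 kb upstream, marked at 50% or more. Islands, CG counts and promoters came from the RefSeq GRCm38.p6 sequence. The coverage and island steps were tested on simulated data. Genes named were the members, the other T-box genes, protein-coding genes starting in a member's window, and, of 20 T-box partners, the lowest and highest of each group and those whose promoter call changed. No test was run, since each region is 1 list. Members and lists were chosen with earlier results of these data known. Alternatives changed the q-value, peak joining, list size, window and promoter definition.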

Additional observations from a re-analysis of the deposited data

How the results depend on the processing

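No value has a replicate error, so a value was taken as unmoved within 1.5 times the one reported. The counts of members with a peak (8 to 9), the median window coverage (14.8 to 26.9%), the counts of members with CTX outside the eminences (0) and the Jaccard indices (78.2 to 93.6%) stayed within it under every alternative run for them. The count of marked promoters moved in LGE and in all 4 lists, from 5 in both to 8 in both with peaks less than 3 kb apart joined, 9 in both when any covered base was enough, and 8 in both upstream of any transcript. No share over all genes is at hand for any of the alternative promoter counts. In the other settings the counts in LGE and in all 4 lists stayed within that limit, but the members behind them could change. With 2 kb either side of the start, 6 members were marked in all 4 lists. *Tbx5* (50.1 to 100%) and *Tbx18* (62.6 to 100%) were then among them, and *Tbx2* (48.6 to 51.4%) was not. Of the 40 values of single members, 3 moved with joined peaks (*Tbx20*, 14.8 to 14.9%), 14 with the gene body alone, 7 with 5 kb flanks and 11 with 20 kb flanks. The order of the lists and the cover of the first base were also run under these alternatives, chosen after seeing the data. With joined peaks the first base was covered in 9 members in every list, with no share over all genes at hand for that setting. No paired analysis was possible because each region is 1 merged list. No replicate could be left out for the same reason.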

Other observations

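The sequence between the gene bodies of the 2 neighbouring pairs, less 10 kb at each end, differed in cover. The 128 kb between *Tbx3* and *Tbx5* held 5 peaks over 14.9% of its bases in MGE, 8 over 18.4% in CGE, 6 over 12.8% in LGE and 7 over 16.3% in CTX. The 24.5 kb between *Tbx2* and *Tbx4* held no peak in MGE, CGE or LGE and 1 in CTX, over 1.54% of its bases. Over the 17 T-box genes of the annotation, the start lay in a CpG island in 12, whose mean window coverage over the lists had a median of 19.6% (range 0.526 to 63.2%), and outside islands in 5, with a median of 3.54% (range 0 to 24.1%). *Tbr1* was the most covered of the 5. No test was made of either difference.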
